A study of Homo sapiens with 6 samples.

Results

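The genes described here build the peroxisome or encode its enzymes. They are 31 genes picked by symbol from the 17318 listed in every library, and 30 of them reached a mean of 1 FPKM (a fragment count corrected for transcript length and for library size) over the 6 libraries and were tested. By role they comprised 9 peroxins that sit in the peroxisome membrane, 4 soluble peroxins, 7 other membrane proteins and 11 enzymes of the matrix, the lumen of the organelle. The RNA came from SNU216, an established human gastric cancer cell line grown in RPMI1640 medium with serum. A control siRNA (siControl, 3 libraries) was compared with an siRNA against OXTR, the oxytocin receptor gene (siOXTR, 3 libraries), both 48 h after transfection. All 6 were thus transfected, and no untransfected cells were analysed here. Replicates carry the numbers 1 to 3 in either group, and whether they came from separate cultures is not said, so the p-values reflect no more than the spread of these 6 libraries, which may be technical.

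Peroxisomes are organelles that shorten very long chain fatty acids, break down branched fatty acids, start the synthesis of ether lipids (plasmalogens) and degrade the hydrogen peroxide that their oxidases make. Peroxins, the products of PEX genes, place proteins in the peroxisome membrane and carry folded enzymes across it. PEX19 binds new membrane proteins and PEX3 and PEX16 receive them, while PEX5 and PEX7 bind the targeting signals of matrix enzymes and dock on PEX13 and PEX14. The RING proteins PEX2 and PEX10 and the ATPase PEX6, held at the membrane by PEX26, return the receptor to the cytosol.

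OXTR fell from 39.1 ± 0.257 to 4.92 ± 0.371 FPKM (SD, n = 3 each), so the target followed the labels. The keratin genes KRT8, KRT18 and KRT19 of simple epithelia had means between 1701 and 3157 FPKM in either group. Of the 8 tested epithelial markers 2 rose and 4 fell (median log2 fold change -0.14), with none higher and 4 lower after TMM scaling. Among all tested genes 42.2% rose and 17.6% fell, or 19.2% and 24.5% after TMM scaling. The 4 markers that fell were the 4 with a predicted hydrophobic segment, a class described below of which 46% fell. CDH1, the E-cadherin gene, fell by 1.88 on the log2 scale, from 76.1 to 20 FPKM, MUC1 by 1.44, EPCAM by 1.00 and CLDN4 by 0.41, and the part of this in the values of the members was not tested. No fibroblast marker among the 9 in the files reached 1 FPKM, and their summed level was 2.29 to 2.73 FPKM in siControl and 1.00 to 1.32 FPKM in siOXTR, with COL3A1, DCN, PDGFRA and THY1 under 0.1 FPKM. The 8 blood and endothelial markers summed to 10.5 to 12.2 FPKM in siControl and 9.70 to 10.8 FPKM in siOXTR, with CD68 at 8.61 and 7.40 FPKM, and CD3E, CD14, PECAM1 and VWF were under 0.1 FPKM. In such bulk samples fewer cells of a type and less RNA per cell cannot be told apart. Scaling decides the sign of small changes. Over the 11550 tested genes the log2 fold change had a median of 0.13 in the deposited values and of 0.013 after TMM scaling (trimmed mean of M values, which centres the bulk of genes between libraries), a shift of -0.12.

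The peroxisome genes changed little. As deposited, 12 of 30 tested members rose in siOXTR (40%), 1 fell (3.33%) and 17 did not pass the test (limma, adjusted p under 0.05). Of all tested genes 42.2% rose and 17.6% fell (59.8% in either direction), so the share of rises was close to that of genes at large. After TMM scaling 6 members were higher (20%) and 1 was lower, against 19.2% higher and 24.5% lower among all tested genes. The median log2 fold change of the members was 0.16, with a range from -0.18 (NUDT19) to 0.61 (PEX11G), and 0.047 after TMM scaling. As deposited 28 of the 30 values were above 0, and after TMM scaling 18 were. The libraries of the groups did not overlap in 15 members that were higher in siOXTR (50%) and in 1 that was lower, against 45.2% and 19.2% of all tested genes as deposited.

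**Figure D1:**
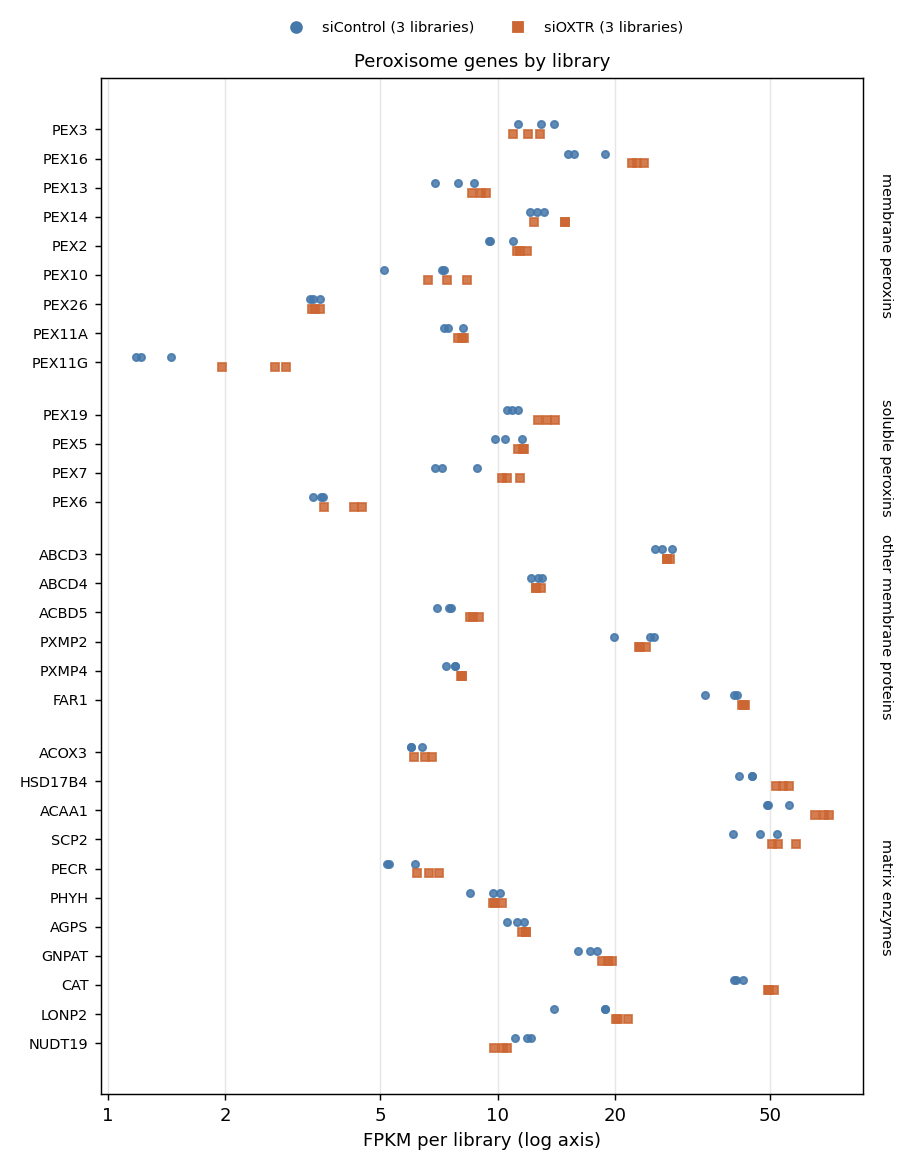
FPKM of 30 peroxisome genes on a log axis, by role, with 1 point per library (circles, 3 siControl; squares, 3 siOXTR); ABCD2, near 0.07 FPKM, is left out. Most pairs of groups lie close together, and the 2 groups stand farthest apart for PEX11G, from 1.18 to 1.45 FPKM in siControl and from 1.97 to 2.87 FPKM in siOXTR.

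Promoter sequence is shown for 4 of the 7 members that were called on both scales (PEX16, PEX11G, PEX7, HSD17B4, ACAA1, CAT and NUDT19). The RefSeq table (GRCh38.p14) matched 28 of 31 members by Entrez number, and PEX14, PEX2 and ACAA1 had no match. The 250 bases before the first listed start are shown, 5′ to 3′ on the strand of the gene, for an assembly gene, an import receptor gene and an enzyme gene that rose and for the gene that fell. PEX16 is taken from chr11:45917878-45918127 (minus strand), PEX7 from chr6:136822342-136822591 (plus strand), CAT from chr11:34438684-34438933 (plus strand) and NUDT19 from chr19:32691571-32691820 (plus strand). The PEX16 window lies wholly inside the gene span given below, from 45909669 to 45918812. Its matches are thus upstream of the start in the RefSeq table but within that span. The PEX7 and CAT windows end just inside their spans, which begin at 136822564 and 34438925. The NUDT19 window ends before its span, which begins at 32691961. Which starts these cells used was not tested. Capitals mark the CCAAT box (CCAAT, or ATTGG on the other strand), the GC box (GGGCGG or CCGCCC) and the core of the antioxidant response element (TGACNNNGC or its reverse complement).
PEX16: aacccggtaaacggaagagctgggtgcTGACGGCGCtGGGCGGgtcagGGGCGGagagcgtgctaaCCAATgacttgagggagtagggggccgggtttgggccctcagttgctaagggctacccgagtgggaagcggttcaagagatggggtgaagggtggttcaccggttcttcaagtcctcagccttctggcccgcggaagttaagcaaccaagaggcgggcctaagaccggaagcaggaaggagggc
PEX7: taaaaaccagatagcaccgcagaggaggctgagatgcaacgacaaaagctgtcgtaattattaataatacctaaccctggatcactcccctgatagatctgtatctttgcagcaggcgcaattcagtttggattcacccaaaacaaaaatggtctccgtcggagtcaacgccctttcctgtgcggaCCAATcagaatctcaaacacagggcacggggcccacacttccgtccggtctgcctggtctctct
CAT: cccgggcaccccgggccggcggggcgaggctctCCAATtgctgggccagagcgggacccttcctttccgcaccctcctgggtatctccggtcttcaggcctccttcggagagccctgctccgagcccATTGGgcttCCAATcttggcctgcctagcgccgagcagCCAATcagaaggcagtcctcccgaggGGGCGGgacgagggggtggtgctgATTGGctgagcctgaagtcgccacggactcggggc
NUDT19: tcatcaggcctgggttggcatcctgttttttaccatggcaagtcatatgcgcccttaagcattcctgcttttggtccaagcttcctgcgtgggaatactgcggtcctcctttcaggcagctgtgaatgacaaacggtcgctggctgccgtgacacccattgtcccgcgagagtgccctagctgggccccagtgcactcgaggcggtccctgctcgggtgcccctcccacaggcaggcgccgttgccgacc
The PEX16 window held 1 CCAAT box, 2 GC boxes and 1 antioxidant core, the PEX7 window 1 CCAAT box, and the CAT window 5 CCAAT boxes and 1 GC box, whereas none of the searched letters occurred in the NUDT19 window. Over the 28 members, 10 held a CCAAT box (35.7%, against 35.8% of 9511 tested genes with a promoter in the table and 33.0% of all 27305 promoters). A GC box stood in 19 (67.9%, against 68.6% and 42.3%) and the antioxidant core in 4 (14.3%, against 12.1% and 11.0%). The members with this core were PEX16, which rose, and PEX10, ACOX3 and ABCD4, which did not pass the test. The nuclear receptor half-site AGGTCA occurred in 2 members (7.14%, against 8.46% and 12.1%), and the direct repeat of that half-site with a 1-base spacer, DR1, which PPAR factors bind, in 0 of the 28 (0.0210% and 0.0183%). The composite site TGATGNAA of ATF4 and C/EBP factors occurred in 1 member, HSD17B4 (3.57%, against 1.20% and 3.19%). Both strands were searched for each motif, and these matches are descriptions of letters, not of binding.

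Among the peroxins that insert membrane proteins, PEX16 and PEX19 rose and PEX3 did not change detectably. PEX16 (Entrez 9409, chromosome 11 from 45909669 to 45918812, minus strand) was at 15.16, 18.80 and 15.73 FPKM in siControl and at 23.70, 22.07 and 22.81 FPKM in siOXTR. Every siOXTR library was above every siControl library. The rise of PEX16 was 0.45 on the log2 scale (SE 0.075, limma adjusted p = 0.000335), or 0.32 after TMM scaling (limma adjusted p = 0.00378). PEX19, the farnesylated chaperone of membrane proteins, was at 10.54, 10.90 and 11.26 FPKM in siControl and at 14.04, 12.67 and 13.42 FPKM in siOXTR. Its groups did not overlap, and its log2 fold change was 0.27 as deposited (SE 0.061, limma adjusted p = 0.00232) and 0.15 after TMM scaling, where it did not pass the threshold (limma adjusted p = 0.0557). PEX3, the membrane anchor for PEX19, was at 11.26, 12.91 and 13.96 FPKM in siControl and at 11.98, 12.83 and 10.95 FPKM in siOXTR. These ranges overlapped. PEX3 had the lowest log2 fold change of the peroxins, -0.083 (SE 0.080, limma adjusted p = 0.385) and -0.20 after TMM scaling (limma adjusted p = 0.0622).

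The receptors for matrix proteins differed from each other in whether they passed the test. PEX7 (Entrez 5191, chromosome 6 from 136822564 to 136913937, plus strand), which binds the signal near the start of a few enzymes, was at 6.92, 7.22 and 8.87 FPKM in siControl and at 10.55, 10.25 and 11.40 FPKM in siOXTR. All siOXTR libraries were higher, by 0.44 on the log2 scale (SE 0.083, limma adjusted p = 0.000779) and by 0.33 after TMM scaling (limma adjusted p = 0.00807). PEX5, which binds the signal at the end of most matrix enzymes, was at 11.54, 9.86 and 10.44 FPKM in siControl and at 11.62, 11.71 and 11.31 FPKM in siOXTR. The highest siControl library of PEX5 lay within the siOXTR range. Its log2 fold change was 0.11 (SE 0.065, limma adjusted p = 0.15), or -0.0041 after TMM scaling, and it was 0.17 without siControl replicate 1 (limma adjusted p = 0.0406) and 0.067 without siControl replicate 2 (limma adjusted p = 0.390). The difference between the changes of PEX7 and PEX5 was not tested.

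The docking and recycling peroxins gave values close to the median of all genes. PEX14, the docking protein that PEX5 meets first, was at 12.10, 13.16 and 12.61 FPKM in siControl and at 14.92, 14.88 and 12.37 FPKM in siOXTR. One siOXTR library, replicate 3, lay inside the siControl range. The log2 fold change of PEX14 was 0.14 (limma adjusted p = 0.119), and without siOXTR replicate 3 it was 0.22 (limma adjusted p = 0.0201). PEX13, its partner in the docking complex, had a log2 fold change of 0.18 (limma adjusted p = 0.0580), 0.25 without siControl replicate 1 (limma adjusted p = 0.0190) and 0.10 without siControl replicate 2 (limma adjusted p = 0.213). The RING ligase gene PEX2 went from 10.0 ± 0.820 to 11.5 ± 0.361 FPKM and passed the threshold (log2 fold change 0.19, limma adjusted p = 0.0292), but not when siControl replicate 1 or 2 or any siOXTR library was left out (limma adjusted p from 0.0523 to 0.109), nor after TMM scaling (0.069). PEX10, another RING ligase gene, was more scattered, at 6.53 ± 1.24 and 7.46 ± 0.852 FPKM, and did not pass, with a log2 fold change of 0.18 (limma adjusted p = 0.20) that was 0.033 without siControl replicate 3 and 0.10 without siOXTR replicate 1. PEX6 was at 3.48 ± 0.110 and 4.12 ± 0.475 FPKM with a log2 fold change of 0.19 (limma adjusted p = 0.0552), and passed without siOXTR replicate 3 (0.27, limma adjusted p = 0.0159). PEX26, its membrane anchor, had means of 3.39 and 3.42 FPKM.

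Of the PEX11 genes, whose products elongate the membrane before division, PEX11G had the largest change of all members. PEX11G (Entrez 92960, chromosome 19 from 7476875 to 7497449, minus strand) was at 1.45, 1.18 and 1.22 FPKM in siControl and at 2.68, 2.87 and 1.97 FPKM in siOXTR. The groups did not overlap, and the ratio of the means was 1.95. On the log2(FPKM + 1) scale, which understates changes at such low levels, the rise was 0.61 (SE 0.103, limma adjusted p = 0.000353), or 0.53 after TMM scaling (limma adjusted p = 0.00121). PEX11G was also the least expressed of the tested members, at the 6.82 percentile of tested genes. PEX11A was at 7.63 ± 0.455 and 8.06 ± 0.156 FPKM, a log2 fold change of 0.071 as deposited and -0.043 after TMM scaling, neither past the threshold.

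The other membrane proteins were the flattest of the roles, with a median log2 fold change of 0.055 (-0.065 after TMM scaling). Of these, 1 of 6 tested genes was higher (16.7%, against 42.2% of all tested genes). ABCD3, a transporter of branched and dicarboxylic acyl-CoA, was at 26.36, 25.32 and 28.00 FPKM in siControl and at 27.74, 27.13 and 27.12 FPKM in siOXTR. The siOXTR values lay inside the siControl range (log2 fold change 0.041, SE 0.055, limma adjusted p = 0.538; -0.083 after TMM scaling). ABCD2, a transporter of very long chain acyl-CoA, was close to 0 at 0.07, 0.05 and 0.04 FPKM in siControl and 0.15, 0.05 and 0.08 FPKM in siOXTR, and was not tested. ABCD4, a relative of these transporters that works in lysosomes in the handling of cobalamin, had means of 12.6 and 12.7 FPKM. ACBD5, a tail-anchored acyl-CoA binding protein that tethers peroxisomes to the endoplasmic reticulum, was at 7.60, 7.50 and 6.98 FPKM in siControl and at 8.98, 8.64 and 8.49 FPKM in siOXTR. It was the member of this role that rose, by 0.22 on the log2 scale (SE 0.062, limma adjusted p = 0.00989), and after TMM scaling its value of 0.10 did not pass (limma adjusted p = 0.195). The membrane channel gene PXMP2 had means of 23.2 and 23.4 FPKM and PXMP4 means of 7.65 and 8.07 FPKM, and neither passed the threshold. FAR1, the reductase that supplies fatty alcohol for ether lipids, was at 38.5 ± 3.90 and 42.7 ± 0.351 FPKM (log2 fold change 0.15, limma adjusted p = 0.0748), and passed without siControl replicate 3 (0.20, limma adjusted p = 0.0292), whereas without siControl replicate 2 it was 0.066 (limma adjusted p = 0.268).

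Enzymes of fatty acid β-oxidation held the most abundant members, and their first, middle and last steps gave different values. ACOX3, an oxidase that opens the cycle for branched substrates, was low, at 6.14 ± 0.237 and 6.47 ± 0.332 FPKM (limma adjusted p = 0.390). HSD17B4 (Entrez 3295, chromosome 5 from 119452443 to 119637199, plus strand), which carries out the hydration and the following dehydrogenation, was at 44.98, 41.60 and 44.87 FPKM in siControl and at 51.60, 55.79 and 53.83 FPKM in siOXTR. All siOXTR libraries were higher, by 0.29 on the log2 scale (SE 0.055, limma adjusted p = 0.000844), or 0.16 after TMM scaling (limma adjusted p = 0.0351). ACAA1 (Entrez 30, chromosome 3 from 38103129 to 38137242, minus strand), a thiolase of the last step, was at 49.11, 55.84 and 49.36 FPKM in siControl and at 70.65, 68.70 and 65.16 FPKM in siOXTR. It had the largest log2 rise of the enzymes, 0.40 (SE 0.061, limma adjusted p = 0.000177), and 0.27 after TMM scaling (limma adjusted p = 0.00333). SCP2, whose gene encodes the thiolase for branched substrates and a sterol carrier protein, was at 46.5 ± 6.07 and 53.7 ± 4.09 FPKM and missed the threshold (log2 fold change 0.21, limma adjusted p = 0.0524). It passed without siControl replicate 3 (0.30, limma adjusted p = 0.00830) and without siOXTR replicate 1 (0.25, limma adjusted p = 0.0495), whereas without siControl replicate 2 it was 0.11 (limma adjusted p = 0.218). PECR, a reductase of trans-2-enoyl-CoA, was at 5.27, 5.21 and 6.13 FPKM in siControl and at 6.68, 7.09 and 6.22 FPKM in siOXTR. Its rise of 0.23 (SE 0.075, limma adjusted p = 0.0185) was lost without siControl replicate 1 or 2 or siOXTR replicate 2 (limma adjusted p from 0.0629 to 0.0830) and after TMM scaling (0.12, limma adjusted p = 0.216).

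Of the enzymes of other matrix pathways, CAT, LONP2 and GNPAT rose as deposited, CAT also after TMM scaling, and AGPS and PHYH did not pass the test. CAT (Entrez 847, chromosome 11 from 34438925 to 34472062, plus strand), which encodes catalase, the enzyme that splits hydrogen peroxide, was at 40.33, 40.95 and 42.66 FPKM in siControl and at 49.31, 51.16 and 49.51 FPKM in siOXTR. The groups were well separated against a small spread, with a rise of 0.27 on the log2 scale (SE 0.050, limma adjusted p = 0.000755), or 0.14 after TMM scaling (limma adjusted p = 0.0413). LONP2, the Lon protease of the matrix, was at 18.84, 18.86 and 13.97 FPKM in siControl and at 21.64, 20.36 and 20.14 FPKM in siOXTR. Its siControl replicate 3 was low, and the rise of 0.26 (SE 0.096, limma adjusted p = 0.0318) was 0.13 without that library (limma adjusted p = 0.0765). The LONP2 call was also lost without any of the siOXTR libraries (limma adjusted p from 0.0543 to 0.0991) and after TMM scaling (0.14, limma adjusted p = 0.237). The ether lipid enzymes GNPAT and AGPS, which attach the first acyl group and exchange it for an alkyl group, had log2 fold changes of 0.15 and 0.069. GNPAT passed the threshold (limma adjusted p = 0.0416) but not without siControl replicate 1 or 2 or any siOXTR library (limma adjusted p from 0.0616 to 0.143) and not after TMM scaling (0.029). PHYH, which starts the α-oxidation of phytanic acid, went from 9.46 ± 0.861 to 9.95 ± 0.279 FPKM, short of the threshold (limma adjusted p = 0.405).

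NUDT19 was the member that fell. This gene (Entrez 390916, chromosome 19 from 32691961 to 32713796, plus strand), whose product hydrolyses coenzyme A and its esters, was at 11.89, 11.10 and 12.16 FPKM in siControl and at 10.57, 9.80 and 10.30 FPKM in siOXTR. Every siOXTR library was below every siControl library. The log2 fold change was -0.18 as deposited (SE 0.061, limma adjusted p = 0.0233) and -0.30 after TMM scaling (limma adjusted p = 0.00178). As deposited the call was lost without siControl replicate 1 or 3 or without siOXTR replicate 2 or 3 (limma adjusted p from 0.0573 to 0.104). Its values per library are given because it fell, a choice made after the values were seen.

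**Figure D2:**
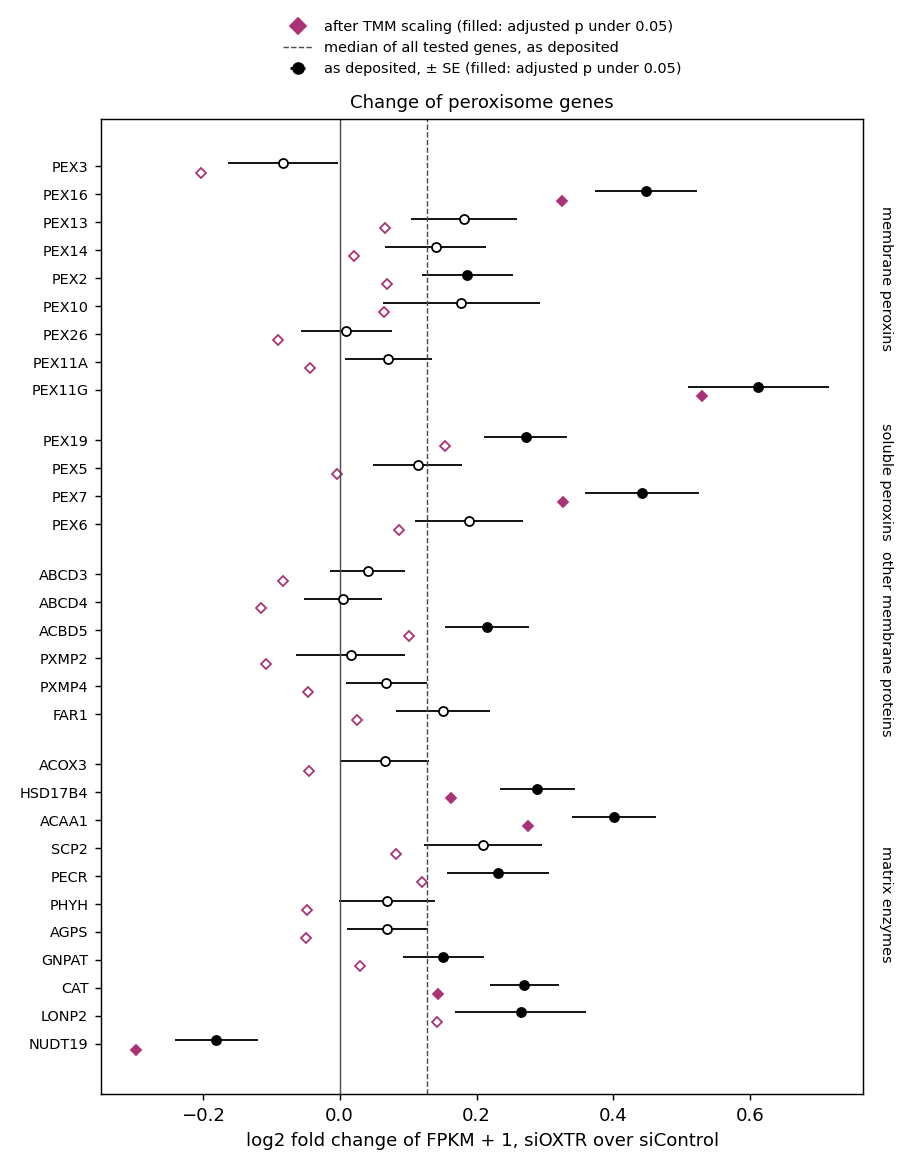
Log2 fold change of FPKM + 1 (siOXTR over siControl, 3 libraries each) of the 30 tested peroxisome genes by role, as deposited (circles, with SE) and after TMM scaling (diamonds); filled symbols passed an adjusted p of 0.05 and the dashed line marks the median of all tested genes, 0.13. Values as deposited run from -0.18 for NUDT19 to 0.61 for PEX11G, and 10 of the members with small positive values turn negative after TMM scaling.

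Set against each other, membrane peroxins and matrix enzymes gave similar values. Of the 9 membrane peroxins 3 rose and none fell, with a median log2 fold change of 0.18, and of the 11 matrix enzymes 6 rose and 1 fell, with a median of 0.21. After TMM scaling 2 membrane peroxins were higher, and 3 matrix enzymes were higher and 1 lower, with medians of 0.065 and 0.083. Among all tested genes 42.2% rose and 17.6% fell, or 19.2% and 24.5% after TMM scaling. The difference of the medians, membrane minus matrix, was -0.031. By siOXTR library it was 0.038, 0.034 and -0.052 (replicates 1 to 3), with an SD of 0.051 that leaves out the spread of the siControl libraries. The difference was smaller in size than this SD. Its sign turned without siControl replicate 2 (0.048) or siOXTR replicate 3 (0.039), and it was -0.12 without siOXTR replicate 1. Genes are not replicates, and this difference has no test. In summed level, membrane peroxins held 76.2, 80.6 and 79.0 FPKM in siControl and 93.7, 92.5 and 86.2 FPKM in siOXTR, a ratio of means of 1.16 (1.06 after TMM scaling). Matrix enzymes held 262.6, 255.2 and 266.3 FPKM in siControl and 308.7, 312.4 and 310.2 FPKM in siOXTR, a ratio of 1.19 (1.09 after TMM scaling). The soluble peroxins rose in 2 of 4 cases, with a median log2 fold change of 0.23 (0.12 after TMM scaling).

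Many genes of membrane and secreted proteins fell in these libraries, and the peroxisome membrane genes were set beside them. Most peroxisome membrane proteins are made on free ribosomes and inserted afterwards, unlike proteins that enter the endoplasmic reticulum as they are made. A hydrophobic segment was predicted from the main coding transcript in GENCODE release 29, a classification taken up with earlier results of these data known. Of 3314 tested genes with a segment, 46% fell and 20.4% rose, with a median log2 fold change of -0.13, whereas of 7940 without one 6.01% fell and 51% rose. Of the 9 members with a membrane role and such a segment (PEX2, PEX3, PEX10, PEX13, PEX16, ABCD3, ABCD4, PXMP2 and PXMP4), none fell and 2 rose, with a median of 0.068 and a range from -0.083 to 0.45. After TMM scaling the median of these 9 was -0.046 with none lower and 1 higher, against 53.6% lower and 8.48% higher in the class. Without ABCD4, which works in lysosomes, an alternative chosen after seeing the data, the other 8 had a median of 0.12 as deposited and of 0.0097 after TMM scaling, with the same counts of calls. The class predicted to be tail-anchored, by hydropathy alone, had 221 genes, of which 13.6% fell and 50.2% rose. It held PEX11A, PEX26 and ACBD5, with a median of 0.071 for the 3. After TMM scaling 16.7% of that class were lower and 31.7% higher, and the median of the 3 was -0.043. The prediction makes errors, since it also marked the soluble proteins PEX6, SCP2 and ACOX3 and found no segment in PEX14, PEX11G and FAR1.

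Other peroxisome genes, from lists drawn up beside the members, gave shares of the same order or above. Of 23 tested matrix enzymes outside the members 16 rose and none fell (median 0.28), and after TMM scaling 11 were higher. The largest rises were in TYSND1, the protease that processes imported enzymes (0.48), the thioesterase genes ACOT8 (0.44) and ACOT4 (0.43), and GSTK1, a glutathione transferase (0.42). Of 10 tested peroxins and membrane genes outside the members 8 rose and 1 fell (median 0.25), with 3 higher and 1 lower after TMM scaling. The gene that fell was SLC27A2, an acyl-CoA synthetase found in both the endoplasmic reticulum and peroxisomes, from 4.81 ± 0.391 to 2.33 ± 0.30 FPKM (log2 fold change -0.80). MPV17L and FAR2 rose by 0.34 and 0.31. A segment was predicted in SLC27A2 and FAR2 but not in MPV17L. Genes of peroxisome division and organelle contact included 6 of 10 that rose and none that fell (2 of 10 higher after TMM scaling), led by the fission adaptor gene FIS1 (0.47), the tether gene VAPB (0.32), GDAP1 (0.23) and VAPA (0.22). VAPB and VAPA encode the partners of ACBD5 at the endoplasmic reticulum. In the turnover list 7 of 12 rose and none fell, with 5 higher and 1 lower after TMM scaling. The autophagy receptor gene SQSTM1 rose by 0.69, GABARAPL1 by 0.43, HSPA9 by 0.32 and ATG7 by 0.31. The shares for all tested genes, 42.2% higher and 17.6% lower as deposited, or 19.2% and 24.5% after TMM scaling, stand for these lists too.

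Genes of lipid steps in the endoplasmic reticulum that adjoin those of peroxisomes were counted as well. Nearly all of them, 11 of 12 tested elongation genes and 9 of 10 of the later plasmalogen steps, belong to the class with a predicted segment, of which 46% fell as deposited and 53.6% were lower after TMM scaling, against 17.6% and 24.5% of all tested genes. Elongation and desaturation of fatty acids, which supplies very long chain substrates, had 9 of 12 tested genes lower and none higher (median -0.60), and 11 lower after TMM scaling. SCD, the stearoyl-CoA desaturase gene, went from 184 ± 9.38 to 88.8 ± 0.949 FPKM, FADS2 from 62.3 ± 1.91 to 30.2 ± 1.21 FPKM and FADS1 from 48.9 ± 1.42 to 25.2 ± 0.526 FPKM. These are desaturases, and HACD3, a dehydratase of the elongation cycle, fell by 0.77 on the log2 scale. In the list of later plasmalogen steps 5 of 10 genes fell and 1 rose (median -0.26), with 7 lower and none higher after TMM scaling. The lysophospholipid acyltransferase genes LPCAT1, LPCAT3 and LPCAT2, which also act on lipids other than plasmalogens, fell by 1.23, 0.81 and 0.72, and SELENOI, the ethanolamine phosphotransferase gene, by 0.44. In the same list CHPT1 (-0.19), PEDS1 (-0.084), DHRS7B (-0.062) and TMEM86B (0.19) did not pass as deposited. Of these, CHPT1 and PEDS1 were lower after TMM scaling, and DHRS7B and TMEM86B did not pass there either. The earlier, peroxisomal steps FAR1, GNPAT and AGPS were at 0.15, 0.15 and 0.069. No test compares these lists with the members.

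**Figure D3:**
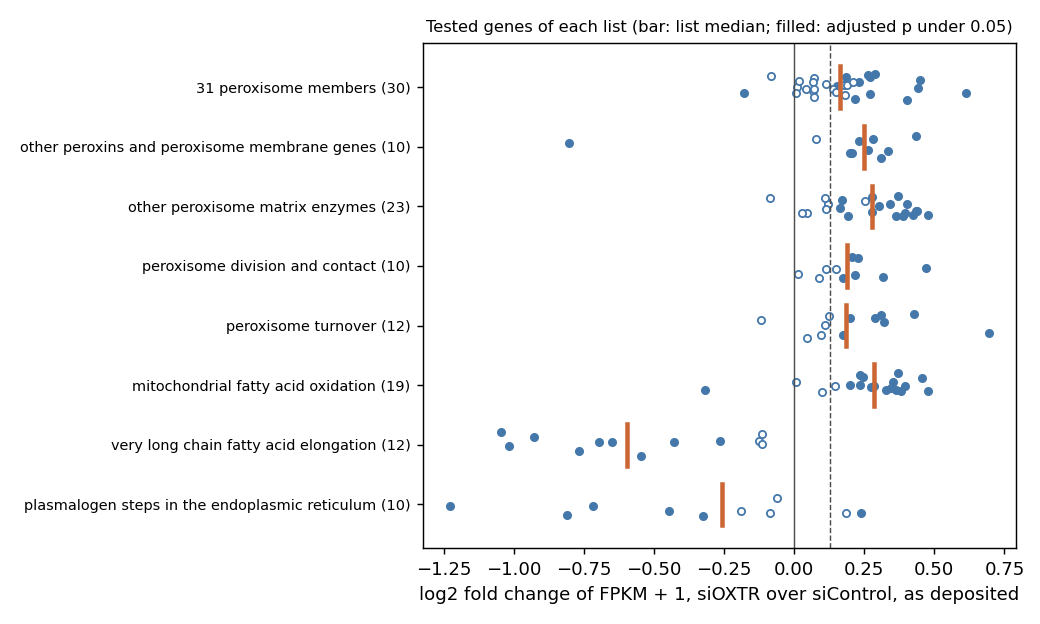
Log2 fold change of FPKM + 1 (siOXTR over siControl, as deposited) of the tested genes in 8 lists, with 1 point per gene (filled, adjusted p under 0.05), a bar at the list median and a dashed line at the median of all tested genes, 0.13. The peroxisome and mitochondrial lists have medians from 0.16 to 0.28 and the lists of elongation and later plasmalogen steps medians of -0.60 and -0.26; after TMM scaling the first range is from 0.047 to 0.18.

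Reads of neighbouring genes could reach some of these values. In GENCODE release 29, 11 members share exonic bases with another protein-coding gene, and whether the authors' counting used strand is not given in the sources used here. Among the 13 called members these were ACAA1 (with DLEC1), LONP2 (with ABCC11 and SIAH1), PECR (with MREG), HSD17B4 and PEX19. DLEC1 was at 0.140 and 0.247 FPKM and MREG at 9.11 and 9.35 FPKM in siControl and siOXTR. SIAH1 was at 13.7 and 16.8 FPKM (log2 fold change 0.29), and its part in the LONP2 value was not tested.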

How the data were processed

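RNA of 6 SNU216 libraries was analysed (3 siControl, 3 siOXTR). Each of the authors' tables gives FPKM, per the file headers. GRCh38.p13 is the build named by the submitters' processing notes, while aligner, quantifier, annotation and filters are not stated in the labels. FPKM summed to 417829 to 434167 per siControl library and to 446246 to 459595 per siOXTR library. Sequencing depth is unknown. Steps of whole fragments were searched for in low values with GENCODE release 29 transcript lengths, but the best coherence was 0.208 to 0.280 of a possible 1 at fragment numbers that differed between libraries, so no depth was taken from them. Within groups, Pearson r between libraries was 0.995 to 0.998, and at most 0.606% of tested genes had the same value in 2 libraries of a group.

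The 11550 genes whose mean reached 1 FPKM entered a limma 3.58.1 fit (R 4.3.3) of log2(FPKM + 1), with group as the only term, a mean trend and a robust prior. Tests were two-sided, with Benjamini-Hochberg adjustment across the 11550 genes. The script was checked on simulated data. Alternatives were a pseudocount of 0.1, no filter, a mean of at least 5 FPKM, TMM scaling (30% of M values and 5% of A values trimmed at each end), scaling to equal totals, limma without trend or robust prior, the replicate number as a block, and each library left out. Members and lists were chosen with earlier results of these data known. Values per library are given for members called with a log2 fold change of at least 0.2 in size and for PEX3, PEX5, PEX14, ABCD3, HSD17B4 and CAT, and up to 4 called genes with the largest change are named per list. Some genes that this rule would name are not reported here. Segments were predicted as a 9-residue window of mean Kyte-Doolittle hydropathy of at least 2.2 in the first 35 residues or any 19-residue window of at least 1.7. A protein whose only such window ended within 45 residues of its end was called tail-anchored.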

Additional observations from a re-analysis of the deposited data

How the results depend on the processing

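The count of members that rose was 6 after TMM scaling and 7 after scaling to equal totals, against 12 as deposited, and over all tested genes these scalings gave 2213 and 2942 genes higher, against 4869. With 1 library left out, 8 to 13 members were higher and 0 to 1 lower (3980 to 4671 and 1820 to 2028 of all tested genes), and the membrane peroxin median minus the matrix enzyme median ran from -0.12 to 0.048. After TMM scaling the sign turned for PEX26 (-0.090), PEX11A (-0.043), PEX5 (-0.0041), ABCD3 (-0.083), ABCD4 (-0.11), PXMP2 (-0.11), PXMP4 (-0.046), ACOX3 (-0.045), PHYH (-0.047) and AGPS (-0.049), and after scaling to equal totals for PEX26 (-0.065), PEX11A (-0.0054), ABCD3 (-0.043), ABCD4 (-0.078), PXMP2 (-0.068), PXMP4 (-0.0088), ACOX3 (-0.0090), PHYH (-0.0089) and AGPS (-0.010). None of these was called as deposited. Scaling to equal totals also enlarged the values against the pseudocount, so that the log2 fold change of PEX11G went from 0.61 to 0.69, and the effects of the 2 changes were not told apart. With 1 library left out it also turned for PEX26 (-0.0032 to 0.028; negative without siControl replicate 3 or siOXTR replicate 1), ABCD4 (-0.019 to 0.025; negative without siControl replicate 1 or siOXTR replicate 2) and PXMP2 (-0.090 to 0.077; negative without siControl replicate 1 or siOXTR replicate 3). Without a filter PEX2, GNPAT and LONP2 lost their calls. With the replicate number as a block, 17 members were higher and 1 lower (5100 and 2105 of all tested genes). Same-numbered libraries deviated together with correlations of 0.107, 0.0042 and 0.160, and siControl replicate 2 correlated more with siOXTR replicate 1 (0.208). With 3 libraries per group these values cannot tell whether a shared number marks a shared culture or day. Without read counts the precision of low members such as PEX11G cannot be stated.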

Other observations

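Mitochondria carry out the fatty acid oxidation that peroxisomes do not, and genes of that pathway were counted beside the members. Of 19 tested genes 15 rose and 1 fell (median log2 fold change 0.28), with 10 higher and 1 lower after TMM scaling. Of all tested genes 42.2% rose and 17.6% fell, or 19.2% and 24.5% after TMM scaling, and these shares stand for each list that follows. ETFB, an electron carrier subunit gene, went from 55.2 ± 2.51 to 77.2 ± 2.26 FPKM and ACADVL, the very long chain acyl-CoA dehydrogenase gene, from 251 ± 23.5 to 344 ± 20.9 FPKM (SD, n = 3 each). CPT2 and SLC25A20, which bring acyl groups into the matrix, rose by 0.40 and 0.38 on the log2 scale. The gene that fell was CPT1A, the enzyme at the outer membrane that controls entry, from 57.3 ± 1.30 to 45.8 ± 0.156 FPKM (log2 fold change -0.32, limma adjusted p = 0.000181). CPT1A is in the class with a predicted segment, of which 46% fell, as are SLC25A20, ACAA2, CPT1B and ECI1, which rose.

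Antioxidant enzymes outside the peroxisome rose in 14 of 19 cases and fell in 1, with 11 higher and 1 lower after TMM scaling. HMOX1 rose by 1.48, NQO1 by 0.69, GCLC by 0.66 and TXNRD1 by 0.61 on the log2 scale, the 4 largest rises of the list, while SOD2 rose by 0.17 as deposited and did not pass after TMM scaling, and PRDX1, PRDX3 and PRDX6 did not pass. PRDX4, a peroxiredoxin of the endoplasmic reticulum, was the gene that fell (-0.46). PRDX4 is in the class with a predicted segment, as are GCLC, TXNRD1, GSR and GPX4, which rose. Among PPAR and PGC1 regulators, which control many peroxisome genes, 6 of 14 rose, a share close to that of all tested genes, and 1 fell, with 2 higher and 5 lower after TMM scaling. The coactivator genes NCOA3 and NCOA2 and the receptor gene RXRB rose by 0.36, 0.29 and 0.25, of which RXRB did not pass after TMM scaling. PPARG rose by 0.19 as deposited and did not pass after TMM scaling. PPARD (-0.26), RXRA (-0.24), PPARA (-0.22) and MED1 (-0.18) were among the 5 lower after TMM scaling, and none of them passed as deposited. PPAR target genes moved both ways, with 6 of 14 higher, again close to the share of all tested genes, and 5 lower, or 3 and 5 after TMM scaling. ACSL3 and ANGPTL4 fell by 1.24 and 1.04, whereas PDK4 and ACADVL rose by 0.57 and 0.45. The 4 tested target genes with a predicted segment, ACSL3, ANGPTL4, ACSL5 and CPT1A, all fell, in a class of which 46% fell. FABP5, which also fell, and all the target genes that rose have none. The part of this class in the split was not tested.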
